A study of Mus musculus with 4 samples.

Results

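The 10 genes described here, Batf3, Id2, Zeb2, Klf4, Zbtb46, Bcl6, Nfil3, Bcl11a, Ikzf1 and Cebpb, encode transcription factors that set the fate of classical dendritic cells (DC) or monocytes and belong neither to the Irf nor to the Ets family. Each was represented by the probe set that carried its symbol alone and had the highest mean over the 4 arrays, and for all 10 genes only 1 such probe set existed. Of these 10 genes, 8 reached the log2 limit of 6.5 on at least 1 array and were tested among 18889 probe sets. The table held 35399 probe sets in all. Splenic Esam DC were sorted, by CD11c, MHC class II, Esam, CD4 and CD8, from 4 male-labelled mice, 6 weeks old and of a strain that no source used here gives, and RNA from each mouse was hybridised to its own array. The 2 control mice are labelled wt (DCRunx3 +/+), and the 2 mutant mice are labelled cKO (DCRunx3 -/-), which stands for Runx3fl/fl/CD11c:Cre. Each of the 2 litters gave 1 wt and 1 cKO mouse. Because Cre was driven by the CD11c promoter, the floxed gene was open to deletion in any cell that expresses CD11c, a class wider than Esam DC. The comparison asked which of these factors differed in transcript level when Runx3 was deleted. Values are log2 values from robust multichip averaging (RMA), all differences are log2 differences taken as cKO minus wt, and errors are SD over 2 mice unless stated.

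Classical DC fall into cDC1, which cross-present antigen to CD8 T cells, and cDC2, to which splenic Esam DC belong. Batf3, a basic leucine zipper factor, pairs with Jun proteins and acts with Irf8 in cDC1. Id2 lacks a DNA-binding region and holds E proteins away from DNA, and Nfil3 and Bcl6 are repressors needed for cDC1. Zeb2, a zinc finger repressor, acts against Id2 and favours cDC2, plasmacytoid DC (pDC) and monocytes. Klf4 is needed by a group of cDC2 and by monocytes, and Cebpb supports monocytes and macrophages. Zbtb46 marks committed classical DC, whereas Bcl11a and Ikzf1, which encodes Ikaros, act in earlier progenitors and in pDC.

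Promoter windows from 250 bases before to 50 bases after the transcription start were taken from RefSeq (GRCm38.p6), which listed all 10 genes with 15 windows. The Runx core motif, searched on both strands as TGTGGT or TGCGGT, was found in 0 of the 15 windows, against 22.4% of 32851 windows. By gene, 0 of the 10 held it in any window, against 25.0% of 27025 mouse genes. That says only that these letters are not in these windows. The Klf motif CCACCC, like all motifs searched on both strands, was held by 7 of the 10 genes (Batf3, Id2, Zeb2, Zbtb46, Bcl11a, Ikzf1 and Cebpb) and by 34.0% of all genes. The windows of the 10 genes had a median GC content of 62.7%, against 52.7% over all windows. The AP-1 motif (TGA, any base, then TCA) was present in Zeb2 and Zbtb46 (8.97% of all genes), the Zeb motif CACCTG in Zbtb46 alone (22.6%), and the Bcl6 motif TTCNNAGAA in Zeb2, Ikzf1 and Bcl6 itself (6.01%). The C/EBP motif TTGCNNAA occurred in Zeb2 (12.2%), the Ikaros motif TGGGAA in Zeb2 and Bcl11a (28.3%), and the Nfil3 motif TTANGTAA in none of the 10 (2.72%). The windows of Batf3, Id2 and Zbtb46 are shown because these 3 genes gave the smallest unadjusted p-values among the factors, each with both cKO arrays below both wt arrays. They are written 5′ to 3′ on the gene's strand, and capitals mark CCACCC on either strand.
Batf3, chr1:191098164-191098463, + strand: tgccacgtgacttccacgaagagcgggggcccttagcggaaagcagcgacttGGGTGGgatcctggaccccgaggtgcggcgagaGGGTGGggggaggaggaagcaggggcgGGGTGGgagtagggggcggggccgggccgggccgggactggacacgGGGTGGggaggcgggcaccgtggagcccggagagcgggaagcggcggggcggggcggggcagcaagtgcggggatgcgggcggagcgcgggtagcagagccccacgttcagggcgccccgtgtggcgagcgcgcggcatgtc
Id2, chr12:25096043-25096342, - strand: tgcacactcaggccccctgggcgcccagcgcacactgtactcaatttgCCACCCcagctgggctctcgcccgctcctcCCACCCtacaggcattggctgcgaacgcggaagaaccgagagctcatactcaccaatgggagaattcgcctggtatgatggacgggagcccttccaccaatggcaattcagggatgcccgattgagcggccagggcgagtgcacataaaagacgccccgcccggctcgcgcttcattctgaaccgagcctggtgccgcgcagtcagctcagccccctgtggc
Zbtb46, chr2:181424339-181424638, - strand: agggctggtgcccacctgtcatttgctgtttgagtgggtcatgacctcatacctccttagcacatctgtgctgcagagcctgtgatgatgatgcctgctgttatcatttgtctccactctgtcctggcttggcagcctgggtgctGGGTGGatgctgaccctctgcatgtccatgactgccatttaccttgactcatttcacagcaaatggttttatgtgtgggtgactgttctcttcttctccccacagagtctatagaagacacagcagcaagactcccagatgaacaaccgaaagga
Batf3 held 4 matches to the Klf motif, Id2 held 2 and Zbtb46 held 1.

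All 4 mice are labelled male, but Xist, the RNA that coats the inactive X chromosome in females, split by litter, with 12.75 and 12.78 on the wt and cKO arrays of litter 1 but 5.15 and 5.19 on those of litter 2. Y-linked Kdm5d ran the other way (5.27 and 5.19 against 9.84 and 9.89). The arrays of litter 1 thus go against their label, each genotype held 1 array of each kind, and differences are therefore also given within each litter. Defining genes of the sorted cells were well above the limit on all arrays, with Itgax (CD11c) between 12.99 and 13.12, Esam between 10.10 and 10.64 and Clec4a4 between 11.68 and 11.92. They were not all level between the genotypes. Itgam (CD11b) was at 10.49 and 10.67 in wt and at 11.31 and 11.35 in cKO, and Cd4 differed by 0.36. Of 9 tested Esam DC markers, 7 had the higher mean in cKO and 2 the lower. Mgl2, a lectin of other cDC2, was between 5.13 and 5.41, below the limit. The Runx3 probe set was at 11.37 and 11.51 in wt and at 11.47 and 11.45 in cKO, and no source used here says whether it covers the deleted part, so it does not check the labels.

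None of the factors passed a test between the genotypes, with 2 mice in each. By limma's adjusted p under 0.05, 0 of 8 tested factors passed, as did 0% of all 18889 probe sets. At an unadjusted p under 0.05 limma also gave 0 of 8, against 9.38% of all probe sets (4.57% higher and 4.81% lower in cKO). The study's thresholds ask for a 1.5-fold change in either direction and for p no higher than 0.05, unadjusted, by the methods' one-way test. They were met by 0 of 8 factors, against 1.41% of all probe sets. The largest difference was 1.22-fold (Batf3), and the median over the 8 factors was -0.078, against -0.020 over all probe sets. The median absolute difference was 0.12 for the factors and 0.11 for all probe sets. Both cKO arrays lay below both wt arrays for 3 of 8 factors (23.7% of all probe sets) and above them for 1 of 8 (16.4%), and the groups overlapped for the other 4, so that 4 of 8 stood apart, against 40.1%.

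**Figure D1:**
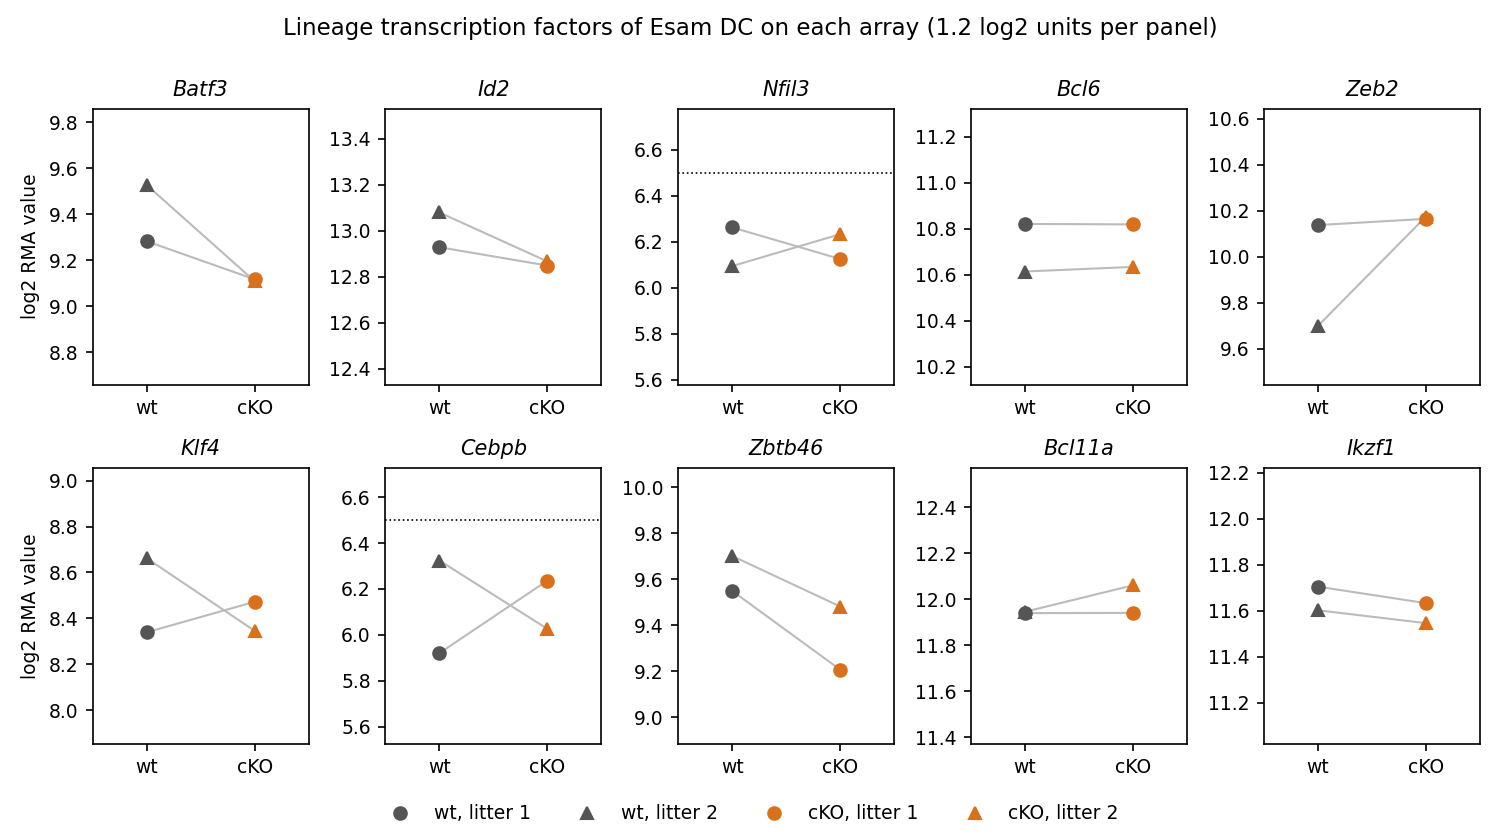
Log2 RMA value (y axis, 1.2 units in every panel) of the 10 factors on each array, for wt (grey) and cKO (orange). Circles are litter 1, triangles litter 2, lines join littermates, and the dotted line is the limit of 6.5. Batf3, Id2, Zbtb46 and Ikzf1 are lower in cKO in both litters, and Nfil3 and Cebpb stay below the limit.

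Among the factors of cDC1 fate, Batf3 was at 9.28 and 9.53 in wt and at 9.12 and 9.11 in cKO. Both cKO arrays were lower than both wt arrays, and the wt mouse of litter 2 stood highest. The means were 9.40 ± 0.17 and 9.11 ± 0.0057 (SD, n = 2). They differed by -0.29 (standard error 0.12), with a 95% interval from -0.61 to 0.026 (limma, adjusted p = 0.559). Id2 was at 12.93 and 13.08 in wt and at 12.85 and 12.87 in cKO, with the groups again apart. Its difference was -0.15, with a standard error of 0.097 and an interval from -0.41 to 0.12 (limma, adjusted p = 0.742). Bcl6 was at 10.82 and 10.61 in wt and at 10.82 and 10.63 in cKO. Its arrays paired by litter rather than by genotype, and the genotypes differed by 0.0087, a value that turned to -0.0044 when each array was centred on its median. Nfil3 was at 6.26 and 6.09 in wt and at 6.12 and 6.23 in cKO, below the limit of 6.5 on all 4 arrays, so it was not tested and no change in it can be read.

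Of the factors of cDC2 or monocyte fate, Zeb2 was at 10.14 and 9.70 in wt and at 10.17 and 10.17 in cKO. The higher cKO mean rested on the wt mouse of litter 2: the difference was 0.48 within litter 2 and 0.027 within litter 1. Pooled, it was 0.25 with a standard error of 0.17, the widest among the 8, and an interval from -0.22 to 0.72 (limma, adjusted p = 0.750). Klf4 was at 8.34 and 8.66 in wt and at 8.47 and 8.35 in cKO, so the groups overlapped. It was higher in cKO in litter 1 (0.13) and lower in litter 2 (-0.32), with a pooled difference of -0.092 and an interval from -0.48 to 0.30 (limma, adjusted p = 0.905). Cebpb was at 5.92 and 6.32 in wt and at 6.24 and 6.03 in cKO, below the limit on all 4 arrays, and was not tested.

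Zbtb46, the marker of committed classical DC, was at 9.55 and 9.70 in wt and at 9.21 and 9.48 in cKO. Both cKO arrays were lower, and the differences were -0.34 in litter 1 and -0.22 in litter 2. The pooled difference was -0.28 with a standard error of 0.14 and an interval from -0.65 to 0.087 (limma, adjusted p = 0.632). With the litter as a block the standard error was 0.095 and the unadjusted p 0.049997, while the adjusted p was 0.464, and 10.8% of all probe sets were under 0.05 unadjusted in that fit. Bcl11a was at 11.94 and 11.95 in wt and at 11.94 and 12.06 in cKO, a difference of 0.058 (limma, adjusted p = 0.905). Ikzf1 was at 11.71 and 11.60 in wt and at 11.63 and 11.55 in cKO, a difference of -0.064 (limma, adjusted p = 0.894). Bcl11a and Ikzf1 had the narrowest intervals, from -0.19 to 0.30 and from -0.32 to 0.19.

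The intervals give the range of differences in array values under limma's fit without the litter. For 5 of 8 factors (Id2, Bcl6, Klf4, Bcl11a and Ikzf1) the 95% interval lay wholly inside a 1.5-fold change (0.58 on the log2 scale) in either direction, as it did for 69% of all probe sets. For Batf3, Zbtb46 and Zeb2 it did not, and a change of 1.5-fold was not excluded by the interval, downward for Batf3 and Zbtb46 and upward for Zeb2. For Zbtb46 this turned with the litter as a block, where the interval ran from -0.56 to -6.5e-06 and lay inside the limit, so that 6 of 8 factors did, against 73.9% of all probe sets. With 2 mice against 2 an exact two-sided permutation test of a single gene cannot give a p below 0.333, and none was run.

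**Figure D2:**
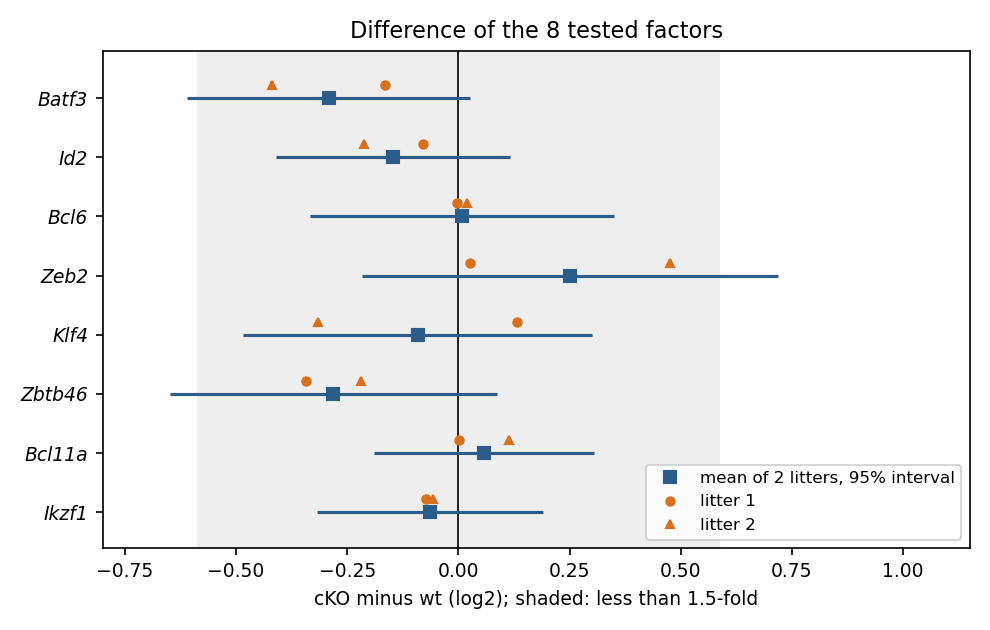
Difference cKO minus wt on the log2 scale (x axis) for the 8 tested factors. Squares with bars are the mean difference and its 95% limma interval, circles and triangles are the differences within litters 1 and 2, and the shaded band marks changes under 1.5-fold. All intervals cross 0, and those of Batf3, Zbtb46 and Zeb2 leave the band.

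The same sign was seen in both litters for 6 of 8 factors, against 57.7% of all probe sets. The 2 wt mice differed more than the 2 cKO mice over all probe sets, with a median absolute difference of 0.16 against 0.096. Batf3, Id2 and Zeb2 followed that pattern: their cKO arrays differed by 0.0080, -0.018 and -0.0088 (litter 1 minus litter 2) and their wt arrays by -0.24, -0.15 and 0.44. The size of the differences of these 3 genes therefore depended on which wt mouse was used. Without wt replicate 1, Batf3 and Zeb2 differed by -0.41 and 0.47, with unadjusted p of 0.015 and 0.010 but adjusted p of 0.215 and 0.204 in limma, and 17.3% of all probe sets were under 0.05 unadjusted in that fit. Without wt replicate 2 the differences were -0.17 and 0.032. Id2 differed by -0.22 without wt replicate 1 and by -0.071 without wt replicate 2. Zbtb46 instead differed more between the cKO mice (-0.27) than between the wt mice (-0.15), and its difference was -0.14 without cKO replicate 1 and -0.42 without cKO replicate 2.

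**Figure D3:**
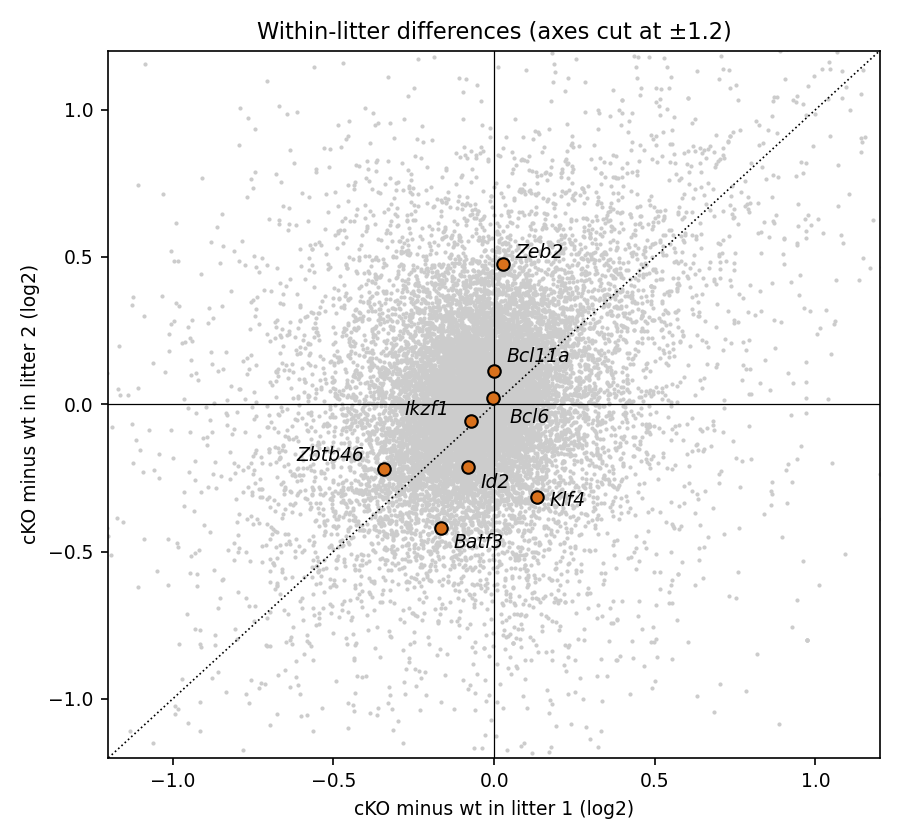
Difference cKO minus wt on the log2 scale in litter 1 (x axis) and litter 2 (y axis) for 18889 tested probe sets (grey) and the 8 tested factors (orange). The dotted line marks equal differences. Batf3, Id2, Zbtb46 and Ikzf1 are negative in both litters, and Zeb2 lies near 0 in litter 1 and at 0.48 in litter 2.

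Markers of other cells differed between the genotypes beside these values, though none passed limma's adjusted p. Of 10 cDC1 markers, 9 had both cKO arrays above both wt arrays (16.4% of all probe sets). The study's thresholds were passed upward by 8 of the 10 (0.9% of all probe sets). The mean log2 value of the 10 was 9.90 and 9.74 in wt and 10.73 and 10.80 in cKO. None of the 10 lay below the limit on all arrays, and Wdfy4 was the marker that differed downward (-0.29). Cd8a, which is in this list, encodes a protein used in the sort. The lectin receptor gene Clec9a was at 9.98 and 9.87 in wt and at 11.27 and 11.51 in cKO, and the chemokine receptor gene Xcr1 at 10.59 and 9.95 in wt and at 11.63 and 11.71 in cKO. Among the cDC1 factors, Batf3 and Id2 were not higher in the same cKO arrays, Bcl6 differed by 0.0087 and Nfil3 was not tested. Irf8, which acts with Batf3 in cDC1, was higher there, with a difference of 1.13 (limma, adjusted p = 0.158). All 12 macrophage markers had the higher mean in cKO, 2 of them past the study's thresholds (0.9% of all probe sets). The mean of the 12 was 9.22 and 9.81 in wt and 10.10 and 10.25 in cKO, so that the wt mouse of litter 2 was closer to cKO. The study's thresholds were also passed by 3 of 6 tested monocyte markers, upward in cKO, against the same 0.9%. The mean over that list was 8.50 and 8.37 in wt and 9.11 and 9.18 in cKO. The markers of NK cells (5), neutrophils (6) and erythroid cells (3) that had a probe set lay below the limit on all arrays. In bulk arrays more cells of a type and more RNA per cell cannot be told apart. The part of these markers in the levels of the factors was not tested.

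Among 12 genes reported to depend on the factors, all were tested. In cKO 5 were higher past the study's thresholds (0.9% of all probe sets) and none was lower (0.514%), with a median difference of 0.69. None passed limma's adjusted p. At limma's unadjusted p under 0.05, 7 were higher (4.57% of all probe sets) and none was lower (4.81%). The 4 genes with the smallest unadjusted p were Csf3r, Clec9a, Cadm1 and Tlr3. Csf3r, which encodes the receptor for G-CSF, was at 7.60 and 7.70 in wt and at 8.90 and 8.96 in cKO. Its difference was 1.28 (limma, adjusted p = 0.158). Clec9a, Cadm1 and Tlr3, which belong to the cDC1 program that requires Batf3, differed by 1.47, 1.23 and 0.98. Prdm1, which Bcl6 represses, was at 7.63 and 6.96 in wt and at 8.32 and 8.33 in cKO and did not pass the study's thresholds. In the opposite direction, the cytokine receptor gene Lifr was at 7.50 and 8.40 in wt and at 7.22 and 7.42 in cKO. Its difference was -0.63 (limma, adjusted p = 0.661). Of the 12 genes, Clec9a, Xcr1, Cadm1, Tlr3 and Itgae are also among the cDC1 markers.

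Relatives of the factors numbered 31 genes, of which 20 were tested and 10 had a probe set below the limit on all arrays. None passed the study's thresholds or limma's adjusted p. At limma's unadjusted p under 0.05, 2 of the 20 were higher (4.57% of all probe sets) and 1 was lower (4.81%). The median difference was 0.10. Ikzf3, which encodes Aiolos, a relative of Ikaros known from B cells, was at 7.83 and 7.04 in wt and at 9.23 and 8.60 in cKO. Its difference of 1.48, with a standard error of 0.36, was the widest in the list, whereas that of Ikzf1 was -0.064. The 3 tested B cell markers differed upward as well, by 0.34 to 0.50, and their part in the Ikzf3 values was not tested. Klf2, a quiescence factor of lymphocytes, was at 7.51 and 7.90 in wt and at 8.31 and 8.30 in cKO. Klf7, a Krüppel-like factor like Klf4, differed by -0.32, with both cKO arrays (8.75 and 8.70) below both wt arrays. Klf3, the fourth by p, differed by 0.21. Batf, the paralog of Batf3, was at 7.92 and 7.89 in wt and at 7.81 and 7.85 in cKO. Id1, Id3 and Id4 were below the limit on all arrays, which leaves Id2 as the only Id gene measured above it. Cebpa, at 8.07 and 8.23 in wt and at 8.39 and 8.29 in cKO, was above the limit where Cebpb and Cebpd were not.

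Partners and corepressors of the factors were tested for 23 of 25 genes, and none passed the study's thresholds or limma's adjusted p. Their median difference was 0.0083. At limma's unadjusted p under 0.05, 2 of the 23 were higher (4.57% of all probe sets) and 1 was lower (4.81%). Both of the higher genes encode E proteins, the partners that Id2 binds. Tcf4, an E protein of pDC, was at 9.77 and 9.69 in wt and at 10.12 and 10.18 in cKO, a difference of 0.42 (limma, adjusted p = 0.325), and Tcf12 was at 9.98 and 9.64 in wt and at 10.29 and 10.28 in cKO, a difference of 0.48 (limma, adjusted p = 0.462). The third E protein gene, Tcf3, differed by 0.024. Of 6 tested pDC markers, Tcf4 among them, 5 had both cKO arrays above both wt arrays (16.4% of all probe sets). Cox6a2 had the largest difference of the 6 (2.68), and Bst2 was the 1 that differed downward (-0.12). The part of these markers in the E protein values was not tested. Mta2, a subunit of the NuRD complex that works with Ikaros and Bcl11a, was at 11.49 and 11.46 in wt and at 11.09 and 11.12 in cKO, a difference of -0.37 (limma, adjusted p = 0.349). The histone deacetylase gene Hdac1, of the same complex, differed by -0.25, and its ATPase gene Chd4 by -0.0048. Jun, a partner of Batf3, was at 10.62 and 11.61 in wt and at 11.16 and 10.98 in cKO, so the wt mice were further apart than the genotypes.

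Other regulators of DC fate, most of them of other families, were tested for 23 of 28 genes. Past the study's thresholds 4 were higher (0.9% of all probe sets) and 1 lower (0.514%), and none passed limma's adjusted p. The 4 with the smallest unadjusted p were Irf8, Myc, Runx1 and Spic. Irf8, the partner of Batf3 in cDC1, was at 10.25 and 10.18 in wt and at 11.32 and 11.38 in cKO, differing by 1.13 ± 0.087 (standard error; limma, adjusted p = 0.158). Batf3 differed by -0.17 and -0.42 in litters 1 and 2. Runx1, the paralog of Runx3, differed by 0.75, and Spic, a factor of red pulp macrophages, by 0.73. Myc was the gene that was lower, at 10.44 and 10.30 in wt and at 9.23 and 9.11 in cKO. The median difference of the list was 0.037.

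**Figure D4:**
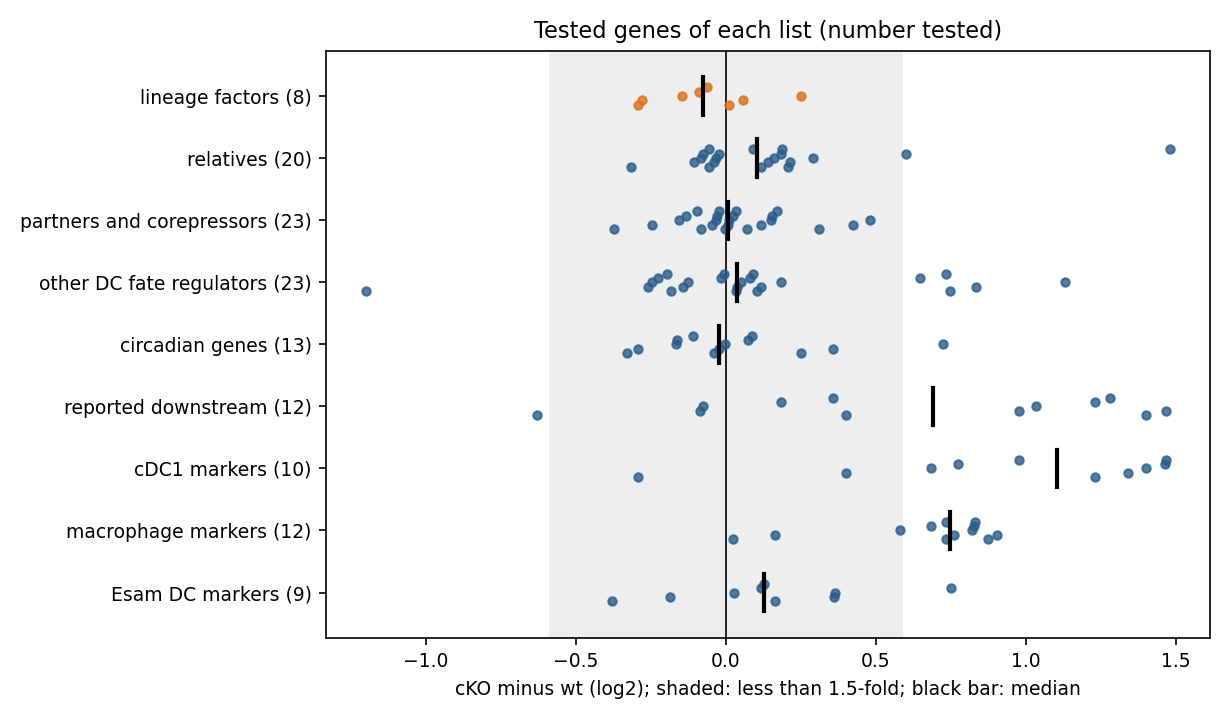
Difference cKO minus wt on the log2 scale (x axis) of each tested gene (points) in 9 lists, with the number tested in brackets, the median as a black bar and the band under 1.5-fold shaded. All 8 lineage factors lie inside the band, the median of the cDC1 markers is at 1.10 and that of the macrophage markers at 0.75.

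Nfil3 competes with the clock output factors Dbp, Tef and Hlf for the same DNA sites, so 15 circadian genes were listed as well, of which 13 were tested. The clock repressor gene Nr1d1 passed the study's thresholds, at 6.22 and 6.23 in wt, below the limit, and at 7.02 and 6.88 in cKO (limma, adjusted p = 0.214). Per3, Per2 and Cry1 followed by p, with differences of -0.33, -0.29 and -0.17, and did not pass. Dbp and Tef differed by -0.039 and -0.023, and Hlf was below the limit on all arrays. No source used here gives the time of day at which the cells were taken.

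The genes most like Batf3, Zbtb46 and Id2 over the 4 arrays were sought among 9893 other genes by the root mean square difference of log2 values centred on each gene's mean. Nearest to Batf3 were Kmt5c (0.0047), Lsm2 (0.0051) and Cotl1 (0.011), to Zbtb46 Lonrf1 (0.0080), Spsb1 (0.017) and Pank3 (0.022), and to Id2 Ctdp1 (0.0056), Arhgap9 (0.0069) and Morc3 (0.0072). At a wider distance of 0.1, 736 genes lay around Batf3, 432 around Zbtb46 and 3215 around Id2.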

How the data were processed

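RNA of sorted splenic Esam DC was measured on 4 Affymetrix arrays, 1 per mouse. The deposited values are log2 intensities, which the authors obtained by GC-corrected RMA. According to the submitters' processing notes, the software was Partek and the build mm9, and no version is given. The study's methods name an exon array, whereas the probe annotation is that of a gene-level array, so values are read per probe set. RMA draws low signals together, which shrinks differences of dim genes, and background per probe set was not used here. Of 35399 probe sets, 21789 carried 1 symbol, 1621 carried several and 11989 were not listed in the annotation. Probe sets with several symbols were left unnamed.

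Groups followed the labels: wt (n = 2) and cKO (n = 2). Array medians lay between 6.58 and 6.62, and no pair of arrays agreed in more than 5 probe sets, so none was a duplicate. The number of arrays limits the precision. Probe sets at 6.5 or above on at least 1 array were tested with limma (version 3.58.1, R 4.3.3; lmFit and eBayes, two-sided, Benjamini-Hochberg over 18889 probe sets, threshold 0.05), and the procedure was tested on simulated data. Intervals are limma's moderated 95% intervals. The labels give the litter, and deviations of littermates from their group means correlated across probe sets (r = 0.27). The litter block was an alternative, as were filters, scalings, variance models, the methods' one-way test and leaving out each array. The factors and all gene lists were chosen with earlier results of these data known, so lists are described by counts and medians only. The genes named from a list are the 4 with the smallest unadjusted p and any showing the opposite direction. In the marker lists not all such genes are named. Others were chosen after their values were seen: Xcr1, Prdm1, Batf, Id1, Id3, Id4, Cebpa, Cebpd, Tcf3, Chd4, Jun, Dbp, Tef, Hlf, Mgl2, Itgax, Esam, Clec4a4, Wdfy4, Cd8a, Cox6a2, Bst2, Xist and Kdm5d. Motifs other than the Runx motif were also chosen after the values were seen.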

Additional observations from a re-analysis of the deposited data

Results flagged for a closer look

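In 2 of the 8 tested factors the littermate pairs moved in opposite directions. The other 6 had the same sign in both litters, as did 57.7% of all probe sets. Klf4 differed by 0.13 (cKO minus wt, log2) in litter 1 and by -0.32 in litter 2. Bcl6 differed by -0.0024 in litter 1 and by 0.020 in litter 2, values close to 0 in both. With 1 mouse per genotype in each litter the difference between litters was not tested.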

How the results depend on the processing

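None of the 8 factors passed limma's adjusted p or the study's thresholds under any alternative run. Fitted with 1 probe set per gene, 42 genes passed limma's adjusted p over all genes, and none was a factor. The count at an unadjusted p under 0.05 was 1 in place of 0 with the litter as a replicate block (Zbtb46; 10.8% of all probe sets), 1 with no filter on dim probe sets (8%) and 1 with 1 probe set per gene (13.4%; Batf3 in each), and from 0 to 2 with 1 array left out (Batf3 and Zeb2, without wt replicate 1; 17.3%). The block changed no adjusted call, but brought the Zbtb46 interval inside the 1.5-fold limit. The median difference of the 8 tested factors ran from -0.12 to -0.024 with 1 array left out and from -0.091 to -0.058 otherwise. With no filter on dim probe sets the median was -0.032, taken over all 10 genes, Nfil3 and Cebpb included. Of the alternatives, 8 leave each factor's difference as it is by construction. Under the other 6, which rescale or leave out arrays, 43 of 48 values kept their direction and 5 reversed. Bcl6 turned to -0.0044 with arrays centred on their medians. With 1 array left out it ran from -0.095 to 0.11, Klf4 from -0.25 to 0.070 and Bcl11a from -0.0022 to 0.12. Ikzf1 ran from -0.12 to -0.013, with no reversal. In an alternative chosen after seeing the data, where limma replaced the methods' test, 0 factors passed the study's thresholds. The trend and robust variance models do not enter the methods' test and were not run for it. A fit without 1 array assumes that the lone mouse varies like the other genotype. The dim factors Nfil3 and Cebpb differed by 0.00058 and 0.0093 without the filter, values under the limit of 6.5 that carry no direction.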
